A study of Mus musculus with 2 samples.

Results

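The genes *Brdt*, *Chd5*, *Rnf8*, *Phf7*, *Epc1*, *Kdm3a*, *Camk4*, *Cdyl* and *Kat5* encode proteins that mark, read or remodel histones, or act on protamines, while the chromatin of male germ cells is rebuilt. They were selected by symbol, 9 of the 50686 genes in the table, and read across all 2552 cells of 2 testis libraries. The cells came from testis tissue of 2 untreated wild-type C57Bl/6J Crl mice aged 8 weeks. There was 1 droplet library of 3′ RNA ends for each animal (1237 cells from mouse 1 and 1315 cells from mouse 2). According to the paper, a part of the testis was digested and filtered through a cell strainer, in part to keep somatic cells few. The animals were littermates and formed a single group, so every comparison below is between stages of germ cell development within both mice.

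In spermatids, most histones are removed from DNA, replaced for a short time by transition proteins and then by protamines, which pack the genome of the sperm head. Removal is preceded by a wave of histone H4 acetylation, which loosens nucleosomes and is read by bromodomain proteins, and by ubiquitination of histones. The 9 genes include an acetyltransferase complex (*Kat5*, *Epc1*), a reader of acetylated histones (*Brdt*), ubiquitin ligases (*Rnf8*, *Phf7*), a histone demethylase (*Kdm3a*), chromodomain proteins (*Chd5*, *Cdyl*) and a protein kinase (*Camk4*).

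The cells were grouped without using the 9 genes or 72 related partner genes. The 6 groups with at least 50 cells in each mouse were called stages 1 to 6 and hold 2532 cells. Their order is that of the median rank of their cells along germ cell development. Stages 5 and 6, with median ranks of 1993 and 2238.5, overlap along it, so the step between them does not compare separate times. Stages 2 and 3, with median ranks of 429 and 1016.5, are not cleanly apart along it either, as the bins below show. The step from stage 2 to 3 thus may not compare fully separate times. Stage 1 was early spermatocyte-like (162 cells, 8 of 10 markers raised) and stage 2 late spermatocyte-like (533 cells, 6 of 8 late markers and 5 of 10 pachytene markers raised). Stage 3 (702 cells) had only 2 of 10 round spermatid markers raised and was left unnamed. Its marker score was highest for round spermatids (0.467) and next for late spermatocytes (0.358), of whose 8 markers 3 were raised. The leading genes of stage 3 were *Ssxb3*, *Ssxb1* and *Ssxb2*. Stage 4 was round spermatid-like (430 cells, 9 of 10 markers). Stages 5 (199 cells) and 6 (506 cells) were both elongating or condensing spermatid-like, with 11 of 11 markers raised, and in stage 5 a further 7 of 10 round spermatid markers were raised. Small groups of 8 spermatogonium-like, 7 Sertoli cell-like and 5 Leydig cell-like cells were not compared.

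UMIs (counted RNA molecules) were summed per mouse and stage, giving 12 sums of 1068201 to 10523347 UMIs. Levels are given as UMIs per 1000000 UMIs of the sum (CPM), and levels of different genes are not compared. Levels per sum carry exact 95% Poisson intervals, which cover counting error only. Steps between neighbouring stages were tested by the quasi-likelihood method of edgeR on TMM-scaled sums, and log2 fold changes are the later over the earlier stage on that scale. Each test rests on the spread between 2 mice.

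The promoters of *Chd5* and *Cdyl* are shown because both genes, with *Camk4*, were highest in one of the spermatid-like stages 4 to 6. In these RefSeq sequences of GRCm38.p6, capitals mark matches on either strand to the cyclic AMP response element core (TGACG), a MYB site (CAACNG or TAACNG) or the X-box core (GTTGCC). The *Chd5* sequence is the 250 bases before the gene on chr4:152338401-152338650, and the *Cdyl* sequence the 221 bases before its outermost start on chr13:35659612-35659832, both on the plus strand.
Chd5: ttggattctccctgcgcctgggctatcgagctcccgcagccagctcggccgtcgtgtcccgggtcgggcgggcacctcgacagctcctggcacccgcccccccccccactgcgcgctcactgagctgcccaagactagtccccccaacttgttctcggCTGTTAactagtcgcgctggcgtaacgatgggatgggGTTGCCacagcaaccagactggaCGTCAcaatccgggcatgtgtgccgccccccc
Cdyl: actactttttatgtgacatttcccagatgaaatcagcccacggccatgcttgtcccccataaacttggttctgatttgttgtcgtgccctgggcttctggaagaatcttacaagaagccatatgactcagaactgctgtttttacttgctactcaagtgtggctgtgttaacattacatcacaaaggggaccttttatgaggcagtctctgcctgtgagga

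The *Chd5* sequence held 1 match to each of these 3 motifs, and the *Cdyl* sequence held none of them. The other 2 *Cdyl* windows, which overlap each other inside the gene (from chr13:35741152 and chr13:35741212), held a MYB site, and the first of them also the X-box core. Over the 13 windows of the 7 matched genes, 5 held the response element core, 6 a MYB site and 4 the X-box core. These windows are not separate units. The 2 *Chd5* windows (from chr4:152338401 and chr4:152338404) hold the same matches, and the 2 inner *Cdyl* windows share their MYB site. By gene, 3, 4 and 3 of the 7 had a match in at least 1 window, and a gene with several windows had several chances. Among all 32817 RefSeq promoters, 17.7% held the response element core, 43.1% a MYB site and 10.4% the X-box core within 250 bases before the start. The full element TGACGTCA was in 1.5% of all promoters and in none of these 13 windows. Matches of such short motifs are a description of the letters in these windows.

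Across the 6 stages, 3 patterns were seen in mean CPM. *Brdt*, *Rnf8*, *Phf7* and *Kdm3a* were highest in stage 1, *Epc1* and *Kat5* in stage 2, and *Chd5*, *Camk4* and *Cdyl* in stage 4 or 5. All 9 genes passed the test for any difference across stages, as did 97.4% of the 13823 genes tested, so this count says nothing particular about the 9. The highest stage of *Phf7*, *Camk4* and *Cdyl* depended on the scaling. With TMM and with RLE factors, summing the fitted steps, all 3 were highest in stage 6. Per cell, *Phf7* was highest in stage 2 (although its median count was highest in stage 1), and *Camk4* and *Cdyl* in stage 5. The highest stage of the other 6 genes was the same under TMM, RLE factors, total UMIs and per cell.

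**Figure D1:**
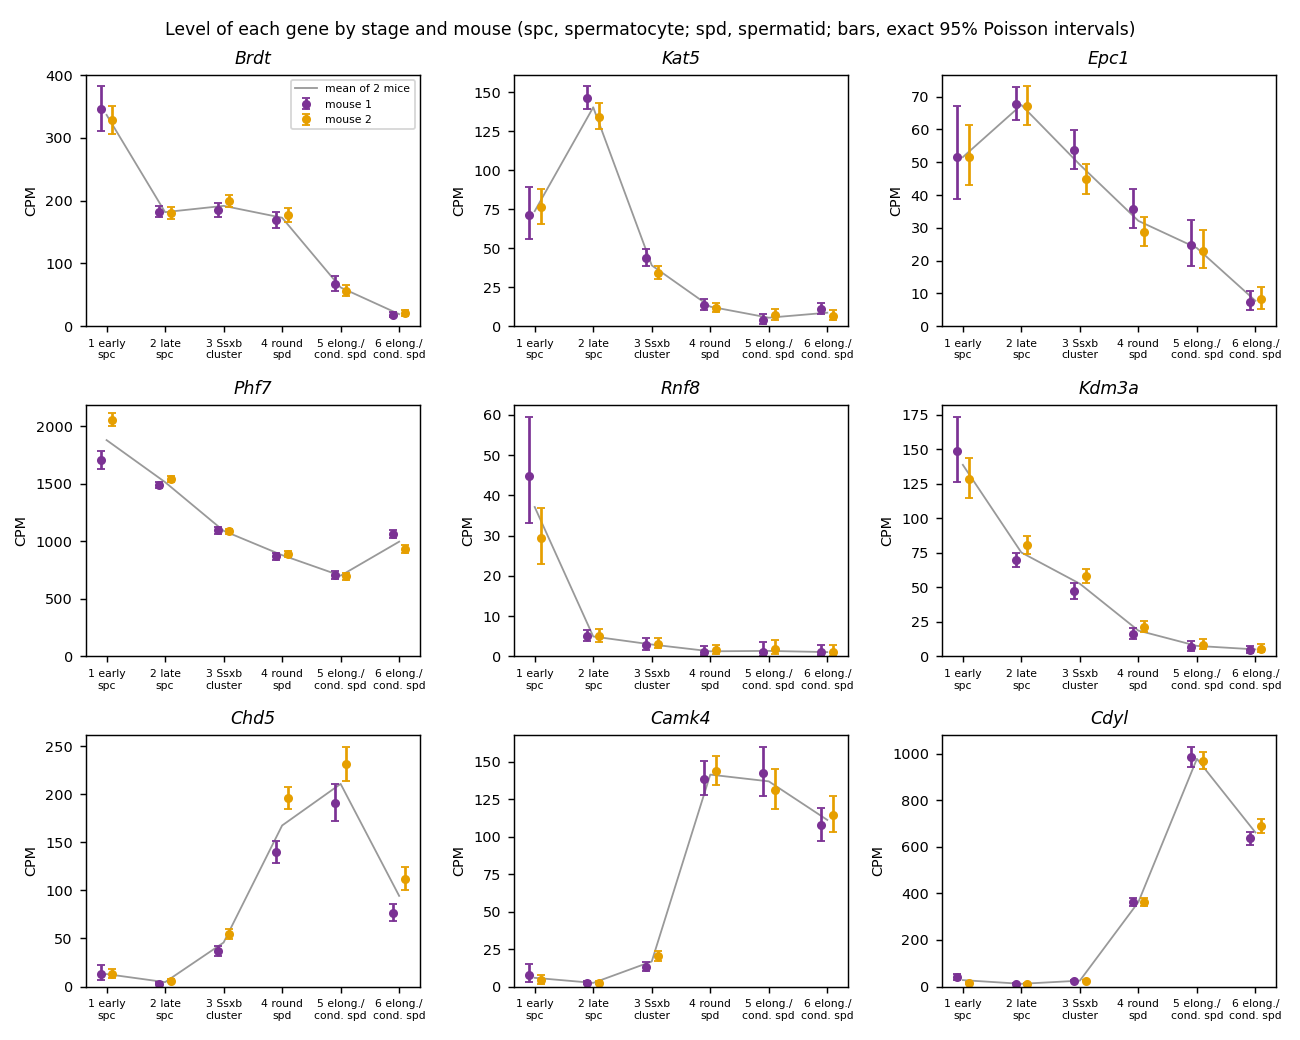
Level of each of the 9 genes (CPM, linear axis from 0) in stages 1 to 6. Points are the sums of each mouse with exact 95% Poisson intervals, and the grey line is the mean of 2 mice. *Chd5*, *Camk4* and *Cdyl* are low in stages 1 and 2 and high from stage 4, whereas the mean CPM of the other 6 genes is highest in stage 1 or 2 (with TMM, *Phf7* is highest in stage 6).

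From stage 1 to stage 2, *Epc1* and *Kat5* rose (2 of 9, against 26.1% of all genes tested that rose) and 5 fell (*Brdt*, *Chd5*, *Rnf8*, *Kdm3a* and *Cdyl*, against 24.8% of all genes). From stage 2 to 3, *Chd5*, *Camk4* and *Cdyl* rose (3 of 9, against 32.0%), and *Rnf8*, *Phf7*, *Epc1*, *Kdm3a* and *Kat5* fell (5 of 9, against 31.9%). From stage 3 to 4 the same 3 genes rose (background 26.1%), and *Kdm3a* and *Kat5* fell (background 20.7%). From stage 4 to 5, *Chd5*, *Camk4* and *Cdyl* rose again (background 23.3%), and *Brdt* and *Kdm3a* fell (background 21.2%). From stage 5 to 6, *Phf7* and *Kat5* rose (background 16.5%), and *Brdt*, *Chd5* and *Epc1* fell (background 23.3%). The median log2 fold change of the 9 genes at the 5 steps was -0.64, -0.41, -0.06, 0.17 and 0.03, beside 0.01, -0.05, -0.06, -0.07 and 0.00 for all genes tested. No test of these shares was made. The counts depended on the setting, and brackets give the count of all genes in the same setting, of 13823 tested unless stated. At the step from stage 4 to 5, only 1 of the 9 rose with total UMIs (2403), per cell (2471) or without the filter on low counts (2569 of 27004). From stage 1 to 2, only 1 of the 9 fell per cell (2179) and 3 fell without doublets (3242 of 13770). At that step only 1 rose with RLE factors (2686), total UMIs (2857) or DESeq2 (2508). From stage 2 to 3, 3 fell without the filter (4346 of 27004) and 2 with DESeq2 (3658). From stage 3 to 4 and from 4 to 5, 5 fell with total UMIs (4628 and 5465), and from stage 5 to 6 only 1 rose (859).

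**Figure D2:**
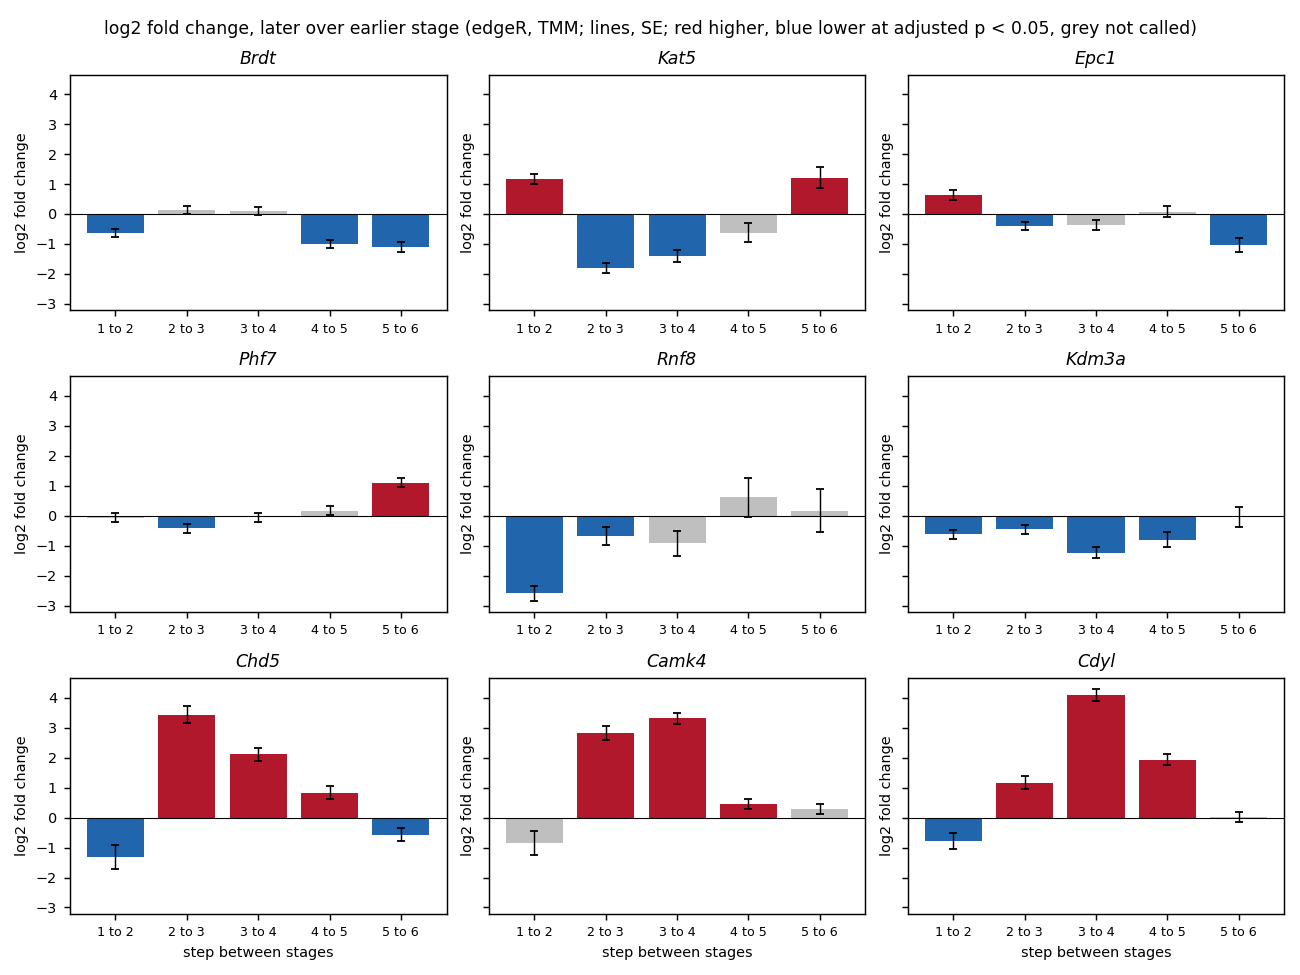
log2 fold change of each gene at the 5 steps between neighbouring stages (edgeR, TMM scaling), with lines for the SE. Red bars rose and blue bars fell at an adjusted p under 0.05, and grey bars were not called. The tallest bar is the rise of *Cdyl* from stage 3 to 4.

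*Kat5* encodes the catalytic subunit of the TIP60 (NuA4) complex, which acetylates histones H4 and H2A. It lies on chr19:5603014-5610237, minus strand. In stages 1 to 6 its level was 71.1, 146, 43.7, 13.4, 3.87 and 10.7 CPM in mouse 1. In mouse 2 it was 76.4, 134, 34.3, 11.6, 6.97 and 6.52 CPM. Both mice were highest in stage 2 and low from stage 4 on. The step from stage 1 to 2 was a rise of 1.16 on the log2 scale (SE 0.18, adjusted p = 8.59e-06), followed by falls of 1.80 (SE 0.17, adjusted p = 2.51e-09) and 1.39 (SE 0.20, adjusted p = 4.28e-06). The later rise from stage 5 to 6 (1.21, SE 0.34, adjusted p = 0.00612) rested on 28 and 58 UMIs. It was 1.99 without mouse 2 and 0.48 without mouse 1. In mouse 2, stages 5 and 6 had 20 UMIs each. The call was lost with total UMIs (0.62, adjusted p = 0.154) and the direction turned per cell (-0.29, adjusted p = 0.458). At its 3′ end *Kat5* overlaps *Rnaseh2c* on the opposite strand (4214 UMIs), and the sources used here do not state whether counting used strand. *Rnaseh2c* had 585 UMIs in stage 1, where the sums were 1068201 and 2421642 UMIs. It had 1750 in stage 2, where the sums were 10523347 and 7486894, so its share of all UMIs was lower in stage 2. Whether its reads were counted for *Kat5* was not tested.

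*Epc1* encodes a scaffold subunit that joins KAT5 to nucleosomes, and lies on chr18:6435951-6516108, minus strand. Its level in stages 1 to 6 was 51.5, 67.8, 53.7, 35.6, 24.6 and 7.34 CPM in mouse 1. In mouse 2 it was 51.6, 67.2, 44.8, 28.6, 23.0 and 8.14 CPM. Like *Kat5*, it was highest in stage 2 in both mice, but its decline was gradual. *Epc1* rose by 0.63 from stage 1 to 2 (SE 0.17, adjusted p = 0.00275), fell by 0.41 to stage 3 (SE 0.15, adjusted p = 0.0193) and fell by 1.03 from stage 5 to 6 (SE 0.24, adjusted p = 0.00111). The rise to stage 2 was not called with RLE factors (0.32, adjusted p = 0.0919), total UMIs (0.38, adjusted p = 0.0515) or DESeq2 (0.32, adjusted p = 0.133). The fall to stage 3 was not called without the filter on low counts (-0.38, adjusted p = 0.0865) or with DESeq2 (-0.32, adjusted p = 0.0595). Stage 4 was -0.37 against stage 3 (SE 0.16, adjusted p = 0.0602), which became a call with the mouse as a block (adjusted p = 0.0153). It was also called with total UMIs (-0.62, adjusted p = 0.00158) and per cell (-0.44, adjusted p = 0.0335).

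*Brdt* encodes the testis-specific bromodomain protein that binds acetylated histone H4 and is needed for its removal. It lies on chr5:107331159-107387058, plus strand. Its level was 345, 183, 185, 169, 67.2 and 18.1 CPM in stages 1 to 6 of mouse 1 and 328, 181, 199, 177, 56.1 and 20.2 CPM in mouse 2. Both mice were highest in stage 1, nearly level over stages 2 to 4 and lower in stages 5 and 6. *Brdt* fell by 0.64 from stage 1 to 2 (SE 0.13, adjusted p = 2.41e-04), a call that was lost per cell (-0.23, adjusted p = 0.207). From stage 4 to 5 it fell by 0.995 (SE 0.14, adjusted p = 2.84e-06) and from stage 5 to 6 by a further 1.09 (SE 0.17, adjusted p = 1.45e-05). Per cell it fell from stage 2 to 3 (-0.64, adjusted p = 0.000336), whereas with DESeq2 it rose there (0.215, adjusted p = 0.0489). On the TMM scale the steps from 2 to 3 (0.13, SE 0.13, adjusted p = 0.362) and 3 to 4 (0.10, SE 0.13, adjusted p = 0.55) were not called.

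*Rnf8* encodes a ubiquitin ligase that modifies histones H2A and H2B, and lies on chr17:29614790-29644991, plus strand. It had 285 UMIs in all cells, the fewest of the 9. Its level in stages 1 to 6 was 44.9, 4.94, 2.83, 0.97, 0.97 and 1.13 CPM in mouse 1 and 29.3, 4.94, 3.06, 1.53, 1.74 and 0.98 CPM in mouse 2. Stage 1 held 119 of its 278 UMIs in the stages, and each later stage was below it in both mice. It fell by 2.59 from stage 1 to 2 (SE 0.26, adjusted p = 1.79e-08), and by 0.68 to stage 3 (SE 0.30, adjusted p = 0.0497), a call that was lost under 7 alternatives. From stage 4 on there were 7 to 13 UMIs per stage, and no further step was called. The 3′ end of *Rnf8* overlaps *Gm28052* and *Gm28043* on the same strand, which had 0 and 2 UMIs in the stages, and reads shared with them may not have been counted.

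*Phf7* encodes a PHD finger protein that ubiquitinates histone H2A in spermatids, and lies on chr14:31237689-31251317, minus strand. It was present in every stage, with 1703, 1489, 1094, 869, 707 and 1064 CPM in stages 1 to 6 of mouse 1. In mouse 2 the values were 2057, 1541, 1089, 891, 695 and 930.4 CPM. CPM was lower in each stage from 1 to 5 than in the one before and higher again in stage 6 in both mice. From stage 1 to 2, *Phf7* was -0.07 with TMM (adjusted p = 0.736), -0.32 with total UMIs (adjusted p = 0.0277) and 0.35 per cell (adjusted p = 0.0457). On the TMM scale the fall from stage 2 to 3 was 0.42 (SE 0.15, adjusted p = 0.0167) and the rise from stage 5 to 6 was 1.10 (SE 0.15, adjusted p = 2.59e-06). Per cell, *Phf7* fell from stage 5 to 6 (-0.41, adjusted p = 0.0157). Median counts were 37 UMIs per cell in stage 1 (quartiles 17 and 66.75), 28 in stage 2 (quartiles 19 and 78) and 12.5 in stage 6. The mean count was 40.3 in stage 1 and 51.2 in stage 2. The higher level per cell in stage 2 than in stage 1 thus held for the mean and not for the median.

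*Kdm3a* encodes a demethylase of histone H3 lysine 9 that acts at promoters of spermatid genes, and lies on chr6:71588972-71632990, minus strand. It fell at each of the first 4 steps. Its level was 149, 70.0, 47.2, 15.8, 6.77 and 4.51 CPM in stages 1 to 6 of mouse 1 and 129, 80.5, 58.1, 21.5, 8.36 and 5.54 CPM in mouse 2. The falls were 0.62 (SE 0.16, adjusted p = 0.00224), 0.45 (SE 0.15, adjusted p = 0.0141), 1.23 (SE 0.18, adjusted p = 3.35e-06) and 0.79 (SE 0.26, adjusted p = 0.0154). The first of these falls was not called per cell (-0.22, adjusted p = 0.367) or without the filter on low counts (-0.42, adjusted p = 0.0729), and the second was not called with DESeq2 (-0.37, adjusted p = 0.0873). No step was called from stage 5 to 6 (-0.03, SE 0.34, adjusted p = 0.967), where 38 and 33 UMIs were counted.

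*Chd5* encodes a chromodomain helicase of the NuRD type that is needed for nucleosome eviction in spermatids, and lies on chr4:152338651-152390194, plus strand. Its level was 13.1, 3.14, 36.7, 139, 190.4 and 76.5 CPM in stages 1 to 6 of mouse 1 and 12.8, 6.01, 54.8, 196, 231 and 112 CPM in mouse 2. Mouse 2 was above mouse 1 from stage 2 to stage 6, and the log2 difference of 0.56 in stage 3 lay beyond the 95th percentile of all genes. *Chd5* rose by 3.44 from stage 2 to 3 (SE 0.28, adjusted p = 2.06e-10), by 2.12 to stage 4 (SE 0.22, adjusted p = 2.97e-08) and by 0.83 to stage 5 (SE 0.21, adjusted p = 0.00221). It fell by 0.58 to stage 6 (SE 0.22, adjusted p = 0.0393). The rise to stage 5 was not called with total UMIs (0.33, adjusted p = 0.194), per cell (0.43, adjusted p = 0.14) or without the filter on low counts (0.32, adjusted p = 0.148). The fall to stage 6 was not called with DESeq2 (-0.36, adjusted p = 0.405), RLE factors (-0.36, adjusted p = 0.217), no filter (-0.43, adjusted p = 0.0568) or doublets left out (-0.56, adjusted p = 0.0611).

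*Camk4* encodes a calcium and calmodulin dependent kinase that phosphorylates protamine 2, and lies on chr18:32934931-33191228, plus strand. Calspermin is transcribed from the same locus and shares its last exons, so 3′ counts cannot tell the 2 products apart. The level was 7.49, 2.47, 13.1, 139, 143 and 108 CPM in stages 1 to 6 of mouse 1 and 4.13, 2.40, 20.3, 144, 131 and 114 CPM in mouse 2. All values of stages 4 to 6 were above all values of stages 1 to 3. *Camk4* rose by 2.83 from stage 2 to 3 (SE 0.24, adjusted p = 3.53e-10) and by 3.31 to stage 4 (SE 0.17, adjusted p = 7.01e-13). The smaller rise to stage 5 (0.45, SE 0.16, adjusted p = 0.0216) is not seen in the CPM of mouse 2. It turned to -0.05 with total UMIs (adjusted p = 0.798) and was 0.04 per cell (adjusted p = 0.867).

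*Cdyl* encodes a chromodomain Y-like protein that binds methylated histone H3 and acts as a corepressor, and lies on chr13:35659833-35874063, plus strand. Its transcripts start at sites far apart, which 3′ counts cannot separate. Its level was 40.3, 12.4, 25.6, 363, 985 and 636 CPM in stages 1 to 6 of mouse 1 and 14.9, 10.95, 24.97, 363, 970 and 687 CPM in mouse 2. The mice were close in stages 2 to 6 and differed in stage 1. *Cdyl* rose by 1.16 from stage 2 to 3 (SE 0.21, adjusted p = 4.8e-05), by 4.10 from stage 3 to 4 (SE 0.20, adjusted p = 2.49e-13) and by 1.93 from stage 4 to 5 (SE 0.18, adjusted p = 2.69e-09). The first of these rises was not called per cell (0.39, adjusted p = 0.114). The step to stage 6 was 0.03 (SE 0.17, adjusted p = 0.935). Cells of stage 6 were uneven, with a median of 3 UMIs, quartiles of 0 and 14 and a maximum of 66. In cells thinned to 5000 UMIs each, a *Cdyl* UMI was found in 5.13% and 7.24% of stage 2 cells and in 96.6% and 100% of stage 5 cells of mouse 1 and 2. Unthinned, the shares were 27.6% and 30.8% in stage 2 and 100% in both mice in stage 5, at median depths of 19812 and 21680 UMIs in stage 2 and 23893 and 23058 in stage 5.

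The low levels of *Chd5*, *Camk4* and *Cdyl* in stage 2 were set beside those of 2 genes that spermatids make late, since free RNA in droplets adds UMIs to cells that do not make a gene. The protamine gene *Prm1* in stage 2 had 1.59% (mouse 1) and 1.58% (mouse 2) of its level in stage 6, and the transition protein gene *Tnp1* 1.59% and 1.61%. The corresponding share of the highest stage was 1.73% and 1.67% for *Camk4*, 1.25% and 1.13% for *Cdyl*, and 1.65% and 2.60% for *Chd5*. The 6 genes with the highest mean CPM in stage 1 or 2 had shares in stage 6 from 2.51% for *Rnf8* and 3.03% for *Kdm3a* to 62.5% for *Phf7* in mouse 1. What part free RNA has in these low levels was not tested.

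Stage 1 levels of *Cdyl*, *Chd5* and *Camk4* rested partly on doublets. In stage 1, 3 cells called as doublets held 46.8% of the 79 *Cdyl* UMIs, and 2 of them, in mouse 1, held 34 of its 43. They also held 33.3% of the *Chd5* UMIs and of the *Camk4* UMIs. The fall of *Cdyl* from stage 1 to 2 (0.79, SE 0.27, adjusted p = 0.0161) became 0.06 in the opposite direction without doublets (adjusted p = 0.927), and was 0.28 without mouse 1. The fall of *Chd5* at this step (1.31, SE 0.41, adjusted p = 0.00931) was 0.73 without doublets (adjusted p = 0.225), so neither fall is retained there. Neither was called per cell (-0.39, adjusted p = 0.246 for *Cdyl* and -0.89, adjusted p = 0.0841 for *Chd5*).

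CPM was also read along the ordering of cells in 20 bins of equal number. *Brdt*, *Rnf8* and *Kdm3a* were highest in bin 1, *Phf7* in bin 2, *Kat5* in bin 3 and *Epc1* in bin 4. *Camk4* was highest in bin 14, *Chd5* in bin 15 and *Cdyl* in bin 17. The highest bins of the mice differed by 3 bins for *Kat5* (6 and 3), 2 for *Camk4* (16 and 14), 1 for *Chd5* (16 and 15) and 1 for *Cdyl* (17 and 18), and were the same for the other 5 genes. Bins and stages do not map one to one. Stage 5 was the commonest stage only in bin 16 of mouse 2, and in mouse 1 stage 6 was the commonest from bin 15 to bin 20. In the highest bin of *Phf7* the commonest stage was 2, whereas its mean CPM by stage was highest in stage 1. For *Cdyl* these were stages 6 and 5. In the highest bin of *Chd5* the commonest stage was 6 in mouse 1 and 4 in mouse 2, and its mean CPM by stage was highest in stage 5. In mouse 1, the commonest stage in the highest bin of *Kat5* (bin 6) was 3, whereas its CPM by stage was highest in stage 2. That bin held 313 *Kat5* UMIs, more than the 263 of all stage 3 cells of mouse 1. Bins with stage 3 as the commonest thus also held cells of other stages. The ordering is a description, and neighbouring bins were not tested.

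**Figure D3:**
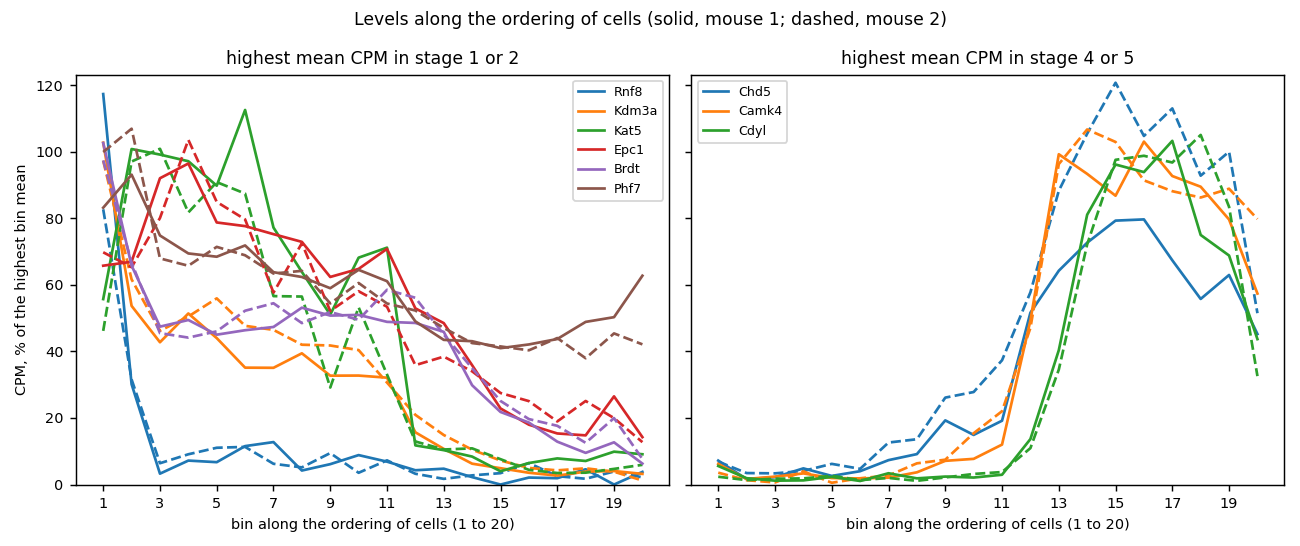
CPM in 20 bins along the ordering of cells, as percent of the highest mean bin of each gene, for the 6 genes with the highest mean CPM in stage 1 or 2 (left) and the 3 genes with it in stage 4 or 5 (right). Solid lines are mouse 1 and dashed lines mouse 2. *Camk4*, *Chd5* and *Cdyl* peak at bins 14, 15 and 17.

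The direction of several late steps depended on the scaling. In stages 5 and 6 the protamine and transition protein genes took 7.498% and 18.9% of all UMIs in mouse 1 and 6.71% and 15.7% in mouse 2, against at most 0.92% in stages 1 to 4. With these UMIs left out of the totals, mean CPM in stage 6 was 799 in place of 662 for *Cdyl* and 1207 in place of 997 for *Phf7*. The stage of highest mean CPM then changed only for *Camk4* (from 4 to 5). What part these UMIs have in the dependence on scaling was not tested. TMM factors fell from 1.66 and 1.48 in stage 1 to 0.504 and 0.482 in stage 6. From stage 5 to 6, the median log2 fold change of all genes was 0.00 with TMM, -0.59 with total UMIs and -1.498 per cell. At this step *Phf7* was 1.10 with TMM, 0.50 with total UMIs and -0.41 per cell, and *Kat5* was 1.21, 0.62 and -0.29. *Cdyl* was 0.03, -0.57 and -1.47, and *Camk4* 0.29, -0.30 and -1.21. Per cell, none of the 9 genes rose and 7 fell at this step, beside 47 and 8779 of all 13823 genes tested. *Brdt*, *Epc1* and *Chd5* fell under these 3 scalings.

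**Figure D4:**
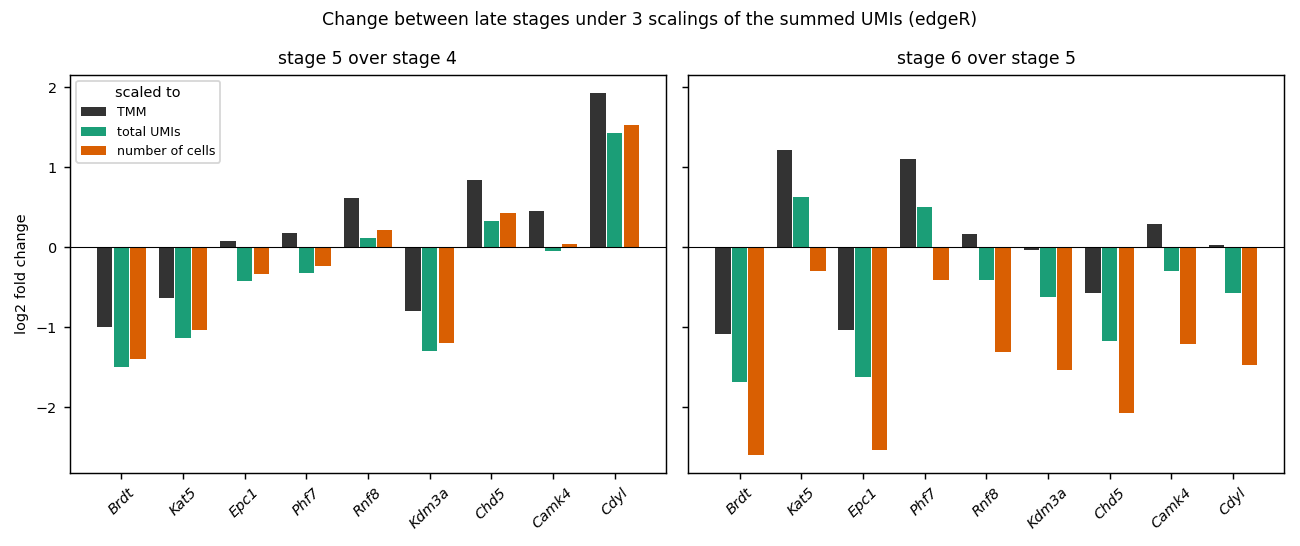
log2 fold change of the 9 genes from stage 4 to 5 (left) and stage 5 to 6 (right) in edgeR with sums scaled by TMM (black), by total UMIs (green) or by the number of cells (orange). At the last step *Phf7*, *Kat5*, *Camk4* and *Cdyl* change sign between scalings, whereas *Brdt*, *Epc1* and *Chd5* are below 0 in all 3.

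Scaling also set the balance of calls over all genes. Of all calls from stage 5 to 6, 41.4% were rises with TMM, 53.1% with RLE factors, 14.5% with total UMIs and 0.5% per cell. From stage 4 to 5 the share was 52.4% with TMM, 30.5% with total UMIs and 34.4% per cell. It was 51.2%, 39.8% and 69.2% from stage 1 to 2, with 37.5% under RLE factors. From stage 2 to 3 rises and falls were even with TMM (4422 and 4416), and 27.8% were rises per cell. The share was 55.7% with TMM and 39.7% with total UMIs from stage 3 to 4. The large rises of *Chd5*, *Camk4* and *Cdyl* from stage 3 to 4 kept their direction and call in all scalings.

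The 2 mice were close for most of the 9 genes. Of 39 combinations of gene and stage with at least 100 UMIs, mouse 2 was higher in 20 and mouse 1 in 19. Only *Chd5* and *Camk4* in stage 3 (log2 differences of 0.56 and 0.59) lay beyond the 95th percentile of all genes. Both mice belong to 1 group, and no test was made.

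Over the 12 sums, *Camk4* and *Cdyl* had a Pearson r of 0.97, *Chd5* and *Camk4* 0.96 and *Brdt* and *Epc1* 0.91, whereas *Chd5* and *Kat5* had -0.97 (log2 of CPM plus 10). The sums of 1 stage are not independent, and these values are descriptions. The genes most like *Cdyl* among 7812 were *Scgn*, *Trim17* and *Gm16347*, and those most like *Camk4* were *Stpg3*, *4930449E01Rik* and *Gm42800*. Those most like *Chd5* included *Stk36* and *Cypt4*, and those most like *Brdt* were *1700048O20Rik*, *Cfdp1* and *Becn1*. *Kat5* was most like *Ubr1*, *Gtf3c4* and *Pabpc6*, and *Epc1* most like *4933433G15Rik*, *Spata16* and *Nkapl*. *Kdm3a* was most like *Fancd2*, *Zfp62* and *Polr2c*, *Rnf8* most like *Kpna3*, *Tmed9* and *Ssb*, and *Phf7* most like *Eif3k*, *mt-Nd1* and *Atp5o*. The r of these genes was 0.98 or above.

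The 72 partner genes were paralogs and complex partners of the 9, of which 67 were tested. At the 5 steps 17, 19, 10, 13 and 8 of them rose and 36, 29, 20, 24 and 22 fell. Of all genes tested, 26.1%, 32.0%, 26.1%, 23.3% and 16.5% rose at these steps, and 24.8%, 31.9%, 20.7%, 21.2% and 23.3% fell. The counts depended on the scaling: 39 partner genes fell from stage 4 to 5 with total UMIs and 41 from stage 5 to 6 per cell. Of all 13823 genes tested, 5465 and 8779 fell in those settings. Of 43 partner genes with at least 500 UMIs, 18 had their highest mean CPM in stage 1 and 30 their lowest in stage 6, against 29.4% and 48.4% of 7863 genes at that depth. The median log2 fold change of the 67 tested partner genes from stage 1 to 2 was -0.64, beside 0.01 for all genes tested.

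In the TIP60 complex (16 genes), 8 fell and 6 rose from stage 1 to 2, and 10 fell and 2 rose from stage 4 to 5. Of all genes tested, 24.8% fell and 26.1% rose at the first of these steps, and 21.2% fell and 23.3% rose at the other. At the steps from stage 2 to 3, 3 to 4 and 5 to 6, 7, 0 and 1 of the complex rose (all genes 32.0%, 26.1% and 16.5%). At the same steps 7, 4 and 8 fell (all genes 31.9%, 20.7% and 23.3%). *Ruvbl1*, an ATPase of the complex, was highest in stage 1 (155 ± 7.20 CPM, SD, n = 2) and was 2.74 ± 0.91 in stage 5. *Brd8*, its bromodomain subunit, fell from 166 ± 29.3 CPM in stage 1 to 3.48 ± 0.14 in stage 6. None of the 14 with at least 500 UMIs had its highest mean CPM in stages 4 to 6. Of 7863 genes at that depth, 13.4%, 10.0% and 9.2% were highest in stages 4, 5 and 6. This depends on the scaling. With TMM, *Ing3* and *Actl6a* were 0.21 and 0.09 higher in stage 4 than in stage 3, neither called (adjusted p = 0.254 and 0.686). The BET paralogs of *Brdt*, *Brd2* and *Brd3*, were both highest in stage 2 (277 ± 14.3 and 199 ± 10.7 CPM). *Brd2* rose by 1.26 and *Brd3* by 0.80 from stage 1 to 2 (adjusted p = 5.65e-08 and 4.69e-05).

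Of the 8 CHD paralogs of *Chd5*, 6 fell and none was called higher at each of the first 2 steps, against 24.8% and 31.9% of all genes that fell and 26.1% and 32.0% that rose. From stage 3 to 4, 1 rose and 2 fell (26.1% and 20.7% of all genes). From stage 4 to 5, where *Chd5* rose, 3 rose and 1 fell (23.3% and 21.2%). From stage 5 to 6, 1 rose and 4 fell (16.5% and 23.3%). *Chd6* and *Chd7* (170 and 111 UMIs in the stages) had values of 0.88 (SE 0.52, adjusted p = 0.142) and 0.48 (SE 0.72, adjusted p = 0.571) from stage 2 to 3. *Chd6* rose by 2.69 from stage 3 to 4 (adjusted p = 2.77e-06) and *Chd7* by 3.31 from stage 4 to 5 (adjusted p = 3.82e-06), and both fell from stage 5 to 6. *Chd1* was 108 ± 12.2 CPM in stage 1 and 1.29 ± 1.37 in stage 6, and *Chd4*, a NuRD helicase, 278 ± 14.4 and 23.2 ± 1.06. *Chd4* rose by 0.58 from stage 4 to 5 (adjusted p = 0.00168). The chromodomain paralog *Cdyl2* was highest in stage 4 (36.5 ± 1.94 CPM) and rose by 3.24 from stage 2 to 3 (adjusted p = 1.29e-10), but fell by 2.23 from stage 4 to 5 (adjusted p = 2.89e-07), where *Cdyl* rose. *Ezh2*, the methyltransferase of H3 lysine 27, was highest in stage 1 (230.5 ± 6.90 CPM) and fell at 3 of the 5 steps. It rose by 0.67 from stage 2 to 3 (adjusted p = 9.77e-05). Of the 5 genes listed as paralog or partners of *Cdyl*, 1, 2, 1, 0 and 1 rose and 4, 1, 0, 2 and 1 fell at the 5 steps. Of all genes, 26.1%, 32.0%, 26.1%, 23.3% and 16.5% rose and 24.8%, 31.9%, 20.7%, 21.2% and 23.3% fell.

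Among 10 genes of H2A and H2B ubiquitination, 2, 5, 5, 2 and 2 rose and 6, 3, 3, 2 and 3 fell at the 5 steps. Of all genes, 26.1%, 32.0%, 26.1%, 23.3% and 16.5% rose and 24.8%, 31.9%, 20.7%, 21.2% and 23.3% fell. *Rnf40*, a ligase for H2B, was highest in stage 2 (80.9 ± 6.87 CPM), and *Ring1*, a ligase for H2A, was 60.7 ± 4.13 CPM in stage 1 and 2.41 ± 0.18 in stage 6. From stage 3 to 4, *Rnf40* fell by 1.065 and *Ring1* by 1.27 (adjusted p = 2.04e-05 and 6.91e-07), so these 2 genes were not among the 5 that rose there. Of 6 H3K9 demethylases, 4 fell and 1 rose from stage 1 to 2, against 24.8% and 26.1% of all genes. At the later steps 1, 2, 2 and 1 rose (all genes 32.0%, 26.1%, 23.3% and 16.5%) and 2, 3, 1 and 1 fell (31.9%, 20.7%, 21.2% and 23.3%). *Jmjd1c* was highest in stage 1 (55.9 ± 3.08 CPM) and *Kdm4d* in stage 2 (160 ± 11.4 CPM). *Kdm4d* fell by 2.30 from stage 3 to 4 (adjusted p = 3.26e-10), where *Kdm3a* fell too.

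Of the CaMK cascade, 7 of 10 genes were tested, and 4 fell and 1 rose at each of the steps from stage 2 to 3 and 3 to 4. Of all genes, 31.9% fell and 32.0% rose at the first of these steps, and 20.7% fell and 26.1% rose at the other. At each of the steps from stage 1 to 2, 4 to 5 and 5 to 6, 2 of the cascade rose (all genes 26.1%, 23.3% and 16.5%). At the same steps 1, 1 and 0 fell (all genes 24.8%, 21.2% and 23.3%). The calmodulin gene *Calm2* was highest in stage 1 (4476 ± 480 CPM) and fell by 3.32 from stage 2 to 3 (adjusted p = 2.39e-13). Of the other acetyltransferases and deacetylases (12 of 14 tested), 6 fell and 3 rose from stage 1 to 2, against 24.8% and 26.1% of all genes. At the later steps 3, 0, 2 and 0 rose (all genes 32.0%, 26.1%, 23.3% and 16.5%) and 4, 3, 6 and 4 fell (31.9%, 20.7%, 21.2% and 23.3%). *Kat7* fell by 3.18 from stage 2 to 3 (adjusted p = 5.71e-13), and *Kat2b* rose by 3.81 (adjusted p = 1.54e-11).

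**Figure D5:**
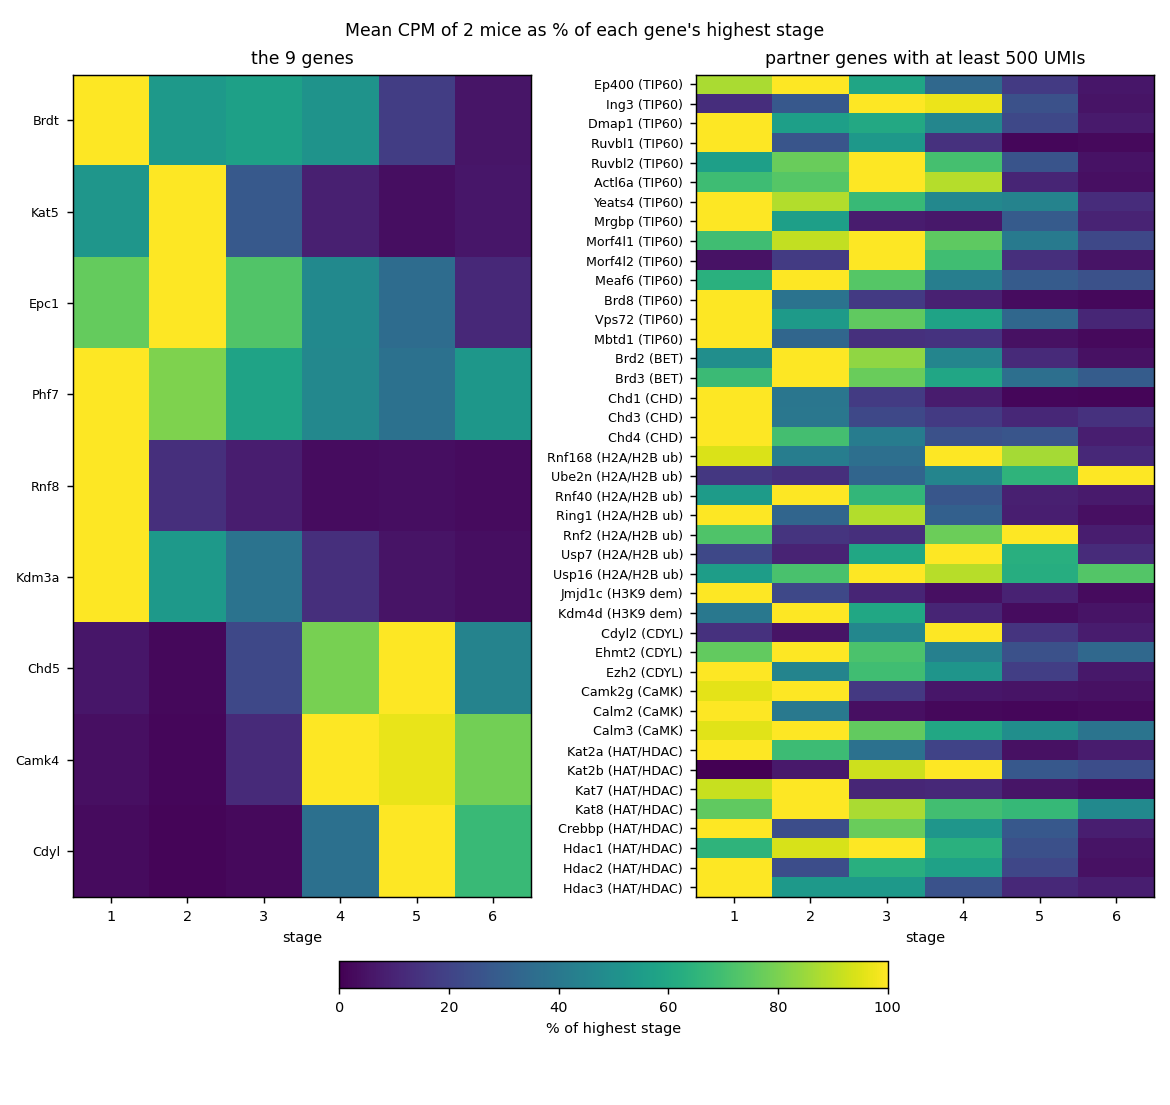
Mean CPM of 2 mice by stage for the 9 genes (left) and 42 of the 43 partner genes with at least 500 UMIs (right), each as percent of its highest stage (yellow, 100). Names in brackets give the list. *Chd5*, *Camk4* and *Cdyl* have their highest mean CPM in stage 4 or 5, as have 4 (stage 4) and 1 (stage 5) of the partner genes. Of all 7863 genes with at least 500 UMIs, 13.4% are highest in stage 4 and 10.0% in stage 5.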

How the data were processed

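Droplet RNA-seq (3′, v2 chemistry) was made from testes of 2 mice, 1 library each. The authors demultiplexed reads with Cell Ranger 2.0.0 and bcl2fastq 2.17.1.14, counted them with Cell Ranger on a repeat-masked GRCm38 genome with Ensembl release 89 genes and added repeats, combined both mice with downsampling, and deposited UMI counts that were not normalized. The deposited barcodes and gene names carry no unit, and the ending of a barcode (1 or 2) was taken as the number of the mouse.

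All cells were kept (27450497 and 30302332 UMIs, medians 17871 and 19184 per cell, 0 shared barcodes). Cells were grouped by K-means (K = 9, seed 42, 10 restarts, 10 principal components of 27709 rows) without the 9 genes and partner genes, and ordered by diffusion pseudotime (15 neighbours). A group was named when at least 3 markers had 1.5 times the CPM of all cells. No immune or peritubular or endothelial group was found. Scrublet called 25 doublets (0.98%), which were kept.

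UMIs summed per mouse and stage were tested with edgeR 4.0.16 (R 4.3.3; TMM, filterByExpr, 13823 genes, Benjamini-Hochberg per step, threshold 0.05). All 12 sums share 1 estimate of the spread. The procedure was tested on simulated data. Members, partner lists, markers and rules were chosen with earlier results of these data known. Named partners are the 2 genes per list with the largest log2 range among those with at least 500 UMIs, and similar genes the 3 with the highest Pearson r. One gene that each of these rules picked is not reported here. Sums of 1 mouse come from the same animal, and their deviations from the stage means correlated in all 15 pairs of stages (r from 0.13 to 0.57), so the mouse was fitted as a block as an alternative. Other alternatives were RLE factors, total UMIs, scaling to cells, no filter, DESeq2 1.42.0, doublets left out, repeat rows left out, seed 1, K = 10 and each mouse left out. Levels were also computed on totals without protamine and transition protein UMIs, with no test. Positions are from GENCODE on GRCm38. Promoter windows were read for 7 of the 9 genes, since *Epc1* and *Camk4*, both on chromosome 18, were left out of that step. Python 3.11.15, scanpy 1.11.5 and scikit-learn 1.9.0 were used.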

Additional observations from a re-analysis of the deposited data

Results flagged for a closer look

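UMIs of the 9 genes were also found in the small groups of cells outside the comparisons, above the limit that a count of 0 allows (3 UMIs of the group's total). In 7 Sertoli cell-like cells, *Phf7* had 366 CPM (31 UMIs, exact 95% Poisson interval 248 to 519) and *Kdm3a* 70.8 CPM (6 UMIs, 26.0 to 154). In 5 Leydig cell-like cells *Phf7* had 118 CPM (6 UMIs, 43.4 to 258). In 8 spermatogonium-like cells, *Brdt* had 147 CPM (13 UMIs, 78.0 to 251), *Phf7* 226 CPM (20 UMIs, 138 to 348), *Epc1* 67.6 CPM (6 UMIs, 24.8 to 147), *Rnf8* 45.1 CPM (4 UMIs, 12.3 to 115) and *Cdyl* 45.1 CPM (4 UMIs, 12.3 to 115). This last group had 10 of 12 spermatogonium markers raised, but also 9 of 10 early spermatocyte markers and 8 of 11 Sertoli cell markers. Its counts therefore cannot be assigned to spermatogonia alone. These groups hold too few cells per mouse for a comparison, and the part of free RNA in these counts was not tested.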

How the results depend on the processing

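The rises of *Chd5*, *Camk4* and *Cdyl* from stage 3 to 4 kept direction and call in all 10 alternatives with a test, and all 9 genes differed across stages in each of them. Sums of 1 mouse come from the same animal, and the block for the mouse (paired analysis) made calls of *Epc1* from stage 3 to 4 (-0.37, adjusted p = 0.0153) and *Camk4* from stage 5 to 6 (0.30, adjusted p = 0.0376) and changed no other call of the 9. Leaving out 1 mouse left no residual degrees of freedom, so no count was made. Low counts limit *Rnf8* after stage 2, and *Kat5* and *Kdm3a* after stage 4.

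Step 1-2 is stage 2 over stage 1, and so on. Brackets give the count of all genes in the same setting, of 13823 tested unless stated. Scaled to cells, the 9 genes had 1 fall at step 1-2 (2179), 1 rise at step 4-5 (2471), and 0 rises (47) and 7 falls (8779) at step 5-6. With total UMIs they had 1 rise at step 1-2 (2857) and 5 falls at step 3-4 (4628). In that setting they had 1 rise (2403) and 5 falls (5465) at step 4-5 and 1 rise at step 5-6 (859). Step 1-2 had 1 rise with RLE factors (2686) and with DESeq2 (2508), and 3 falls without doublets (3242 of 13770). Step 2-3 had 3 falls without the filter (4346 of 27004) and 2 with DESeq2 (3658), and step 4-5 had 1 rise without the filter (2569 of 27004). For the partner genes, rises at step 1-2 numbered 10 with RLE factors (2686) and 11 with DESeq2 (2508). Scaled to cells there were 12 rises at step 2-3 (2970), 37 falls at step 4-5 (4704), and 1 rise (47) and 41 falls (8779) at step 5-6. With total UMIs there were 34 falls at step 3-4 (4628), 8 rises (2403) and 39 falls (5465) at step 4-5 and 3 rises at step 5-6 (859). There were 39 falls at step 4-5 without the filter (5271 of 27004) and 13 rises at step 5-6 with RLE factors (3005).

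Log2 fold changes that turned in the alternatives with a test, none of them tied to a tested cause, were these. Scaled to cells, *Brdt* was -0.64 at step 2-3, *Phf7* 0.35 at 1-2, -0.24 at 4-5 and -0.41 at 5-6, and *Epc1* -0.33 at 4-5. At step 5-6, *Rnf8* was -1.31, *Camk4* -1.21, *Cdyl* -1.47 and *Kat5* -0.29. With total UMIs, *Brdt* was -0.15 at step 3-4, while *Phf7* was -0.33, *Epc1* -0.43 and *Camk4* -0.051 at 4-5, and *Rnf8* -0.41, *Camk4* -0.30 and *Cdyl* -0.57 at 5-6. Without the filter, *Phf7* was 0.14 at step 1-2 and -0.33 at 4-5, *Epc1* -0.42 and *Camk4* -0.054 at 4-5, and *Kdm3a* 0.12 at 5-6. With RLE factors *Phf7* was 0.022 at step 3-4 and *Kdm3a* 0.185 at 5-6, and with DESeq2 they were 0.022 and 0.187. Without repeat rows *Rnf8* was -0.25 at step 5-6. With K = 10, *Rnf8* was -0.18 and *Cdyl* -0.094 at step 5-6 and *Epc1* -0.016 at 4-5 (-0.018 with seed 1). Without doublets *Cdyl* was 0.059 at step 1-2. Leaving out mouse 2 also turned *Phf7* at step 1-2 (0.17), *Epc1* at 4-5 (-0.064) and, at 5-6, *Kdm3a* (0.013) and *Cdyl* (-0.035). Leaving out mouse 1 turned *Rnf8* at 5-6 (-0.21). None of the steps turned by leaving out 1 mouse was called with both mice and TMM. Of the steps turned in the alternatives with a test, *Phf7* and *Kat5* at 5-6, *Camk4* at 4-5 and *Cdyl* at 1-2 were called with both mice and TMM.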
